A study of Mus musculus with 2 samples.

Results

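Genes of the primary cilium and of intraflagellar transport (IFT) were examined in ureter explants of newborn mice in which SHH signaling was blocked. The set held 35 named genes, chosen by what their products are known to do at the cilium: 10 subunits of the IFT-B complex, 3 of the IFT-A complex, 3 transport motors, 8 genes of the BBSome and its chaperonins, 6 transition zone genes and 5 genes of the ciliary membrane and of SHH signaling there. All 35 were found by name among the 29924 gene names of the array, of which 19346 were tested, and each was read from its brightest probe over the 4 channels. Ureters of wild-type NMRI mice were taken on the day of birth (postnatal day 0) and cultured for 18 h, either with 10 µM cyclopamine, a plant alkaloid that blocks the signal transducer SMO, or with solvent at a dilution of 1 in 1000. RNA was taken from pools of ureters and hybridised to 2 Agilent arrays with 2 colours, each of which set a cyclopamine pool against a control pool. Replicate 1 held female pools with cyclopamine in the red channel, and replicate 2 held male pools with the dyes swapped. The sex of the pools cannot be told apart from the dye orientation or the replicate. The limma p-values rest only on the spread between these 2 arrays, pooled largely over all tested probes. The labels name DMF as solvent and the methods of the study name ethanol for cyclopamine, and 1 channel entry of the labels names IWP-2, a WNT inhibitor, where titles, treatment entries and protocol name cyclopamine.

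The primary cilium is a non-motile, microtubule-based projection that most mammalian cells can form. Its parts are carried outward by IFT-B trains with kinesin-2 motors and back to the base by IFT-A and dynein-2, while the BBSome moves membrane proteins and the transition zone at the base controls what enters. Vertebrate SHH signaling passes through it: the receptor PTCH1 leaves the cilium when ligand binds, SMO accumulates there, and GLI proteins are processed along it. In the ureter SHH is made by the epithelium and is received by the surrounding mesenchyme, which forms smooth muscle and lamina propria.

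The arrays differed in brightness. In control, the 75th percentile of intensity came to 3337 for replicate 1 but 628 for replicate 2, and no common scale was set, so levels are compared within an array only. The tissue carried its own markers: 8 of 8 urothelial and 6 of 6 smooth muscle markers were tested, whereas 2 of 6 nephron and collecting duct markers were. The block of the pathway was read from its target genes. Gli1, a transcription factor that SHH switches on, had an intensity of 7771 in control and 2181.9 with cyclopamine on replicate 1, and of 1236 and 289.7 on replicate 2. Ptch1 had intensities of 785 and 360 on replicate 1 and of 207 and 73.7 on replicate 2. Both were lower with cyclopamine on each array and were called by limma, with mean log2 ratios of -1.96 and -1.31.

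The ciliary genes were present at the RNA level and none passed the test. All 35 were well above background in all 4 channels, and 33 of them had a control intensity over 100 on both arrays. Of the 35, 0 were called lower and 0 higher by limma, against 0.868% and 0.439% of all tested genes. The lowest adjusted p was 0.520, for Ift43, which was also the 1 member with an unadjusted limma p under 0.05, against 9.05% of all tested genes. The filter of the study was read here as at least 1.5-fold on each array, both the same way, in genes whose control intensity exceeded 100 on both; the text of the study gives the limits but not whether they hold for each array. It took 0 members lower and 0 higher, against 0.638% (87) and 0.213% (29) of the genes that met the intensity limit. The study itself reports a larger number of lowered genes for these samples, so this reading does not reproduce its count. Cyclopamine was below control on both arrays for 13 members and above it on both for 11, and the remaining 11 had opposite signs. Over all tested genes 29.1% were below and 28.6% above on both arrays, so both counts of members lay close to the background. The median of the mean log2 ratio (cyclopamine over control, averaged over both arrays) was 0.0060 over the members and -0.0061 over all genes tested.

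The spread between arrays, which limma pooled largely over all tested probes, set the width of the intervals. The spread of a member itself changed the width little. The standard error was 0.226 for Ift52 (SD 0.009) and 0.236 for Dync2h1 (SD 0.714). The limma 95% interval of a member reached 0.453 to 0.474 to each side of its mean log2 ratio, and 34 of 35 intervals held 0. The interval of Ift43 ended just below 0. Over all members the intervals ran from -0.93 to 0.87, that is from 1.90-fold lower to 1.82-fold higher.

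**Figure D1:**
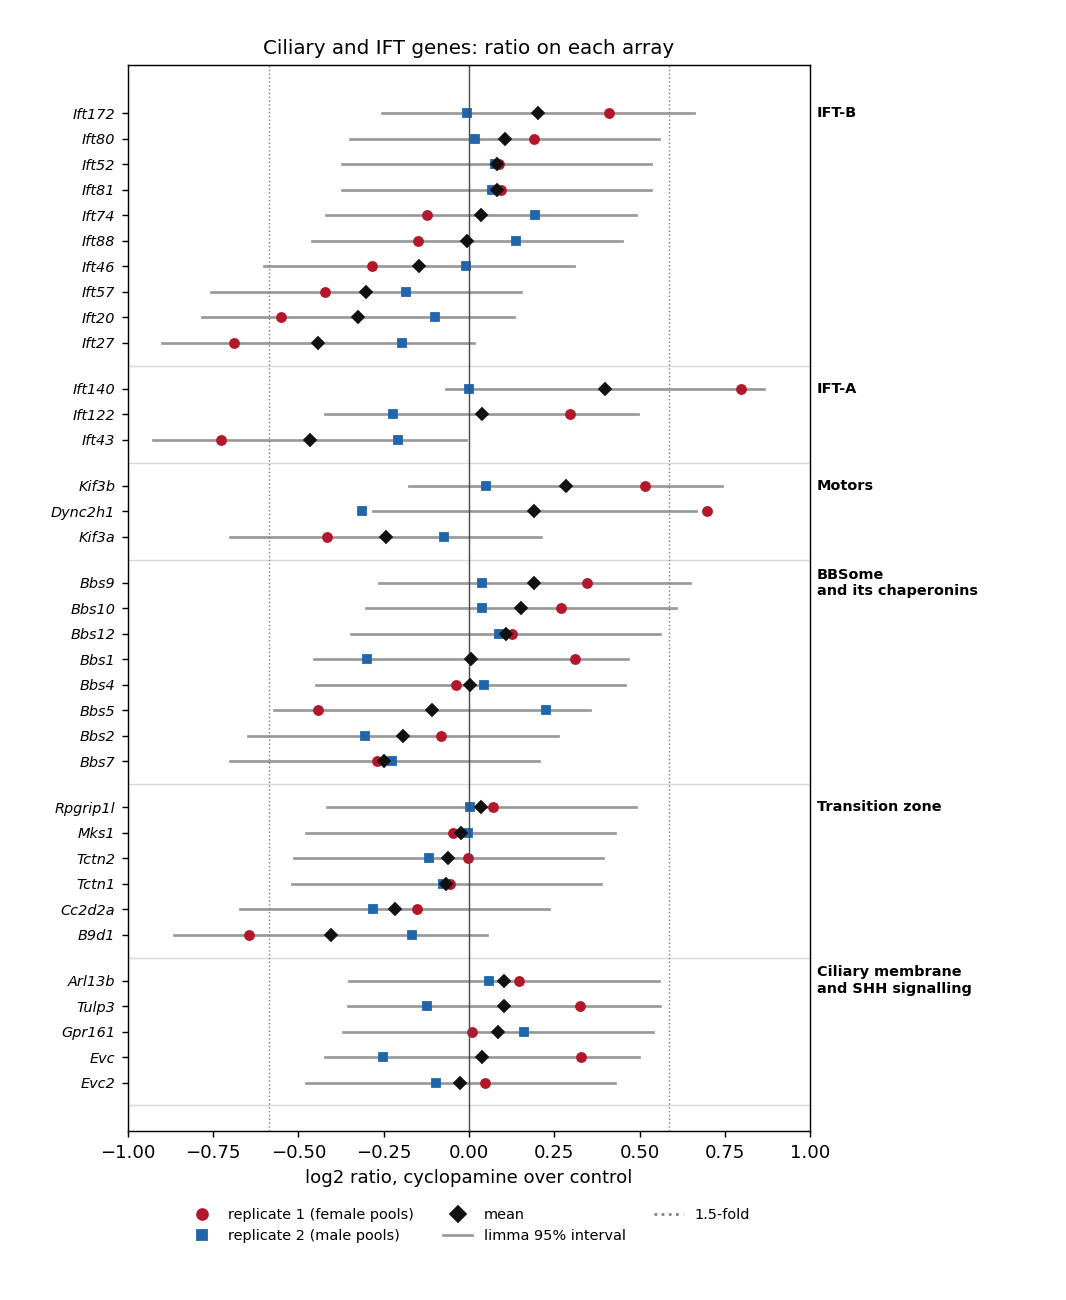
Log2 ratio of cyclopamine over control (x axis) for the 35 genes (y axis) by role: circles are replicate 1 (female pools), squares replicate 2 (male pools), diamonds their mean, grey bars the limma 95% interval, and dotted lines 1.5-fold. On replicate 1, 5 genes lie past a dotted line (3 lower, 2 higher), on replicate 2 none does, and 34 of 35 bars cross 0.

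IFT-B subunits build the outward train. Ift27, a small GTPase of the complex, had an intensity of 8232 in control and 5108 with cyclopamine on replicate 1, and of 1090 and 951 on replicate 2. Ift20, a subunit that also travels between the Golgi and the cilium, had intensities of 18148 and 12397 on replicate 1 and of 2624 and 2448 on replicate 2. Ift57 had intensities of 6194 and 4624 on replicate 1 and of 1039 and 915 on replicate 2. All 3 were below control on both arrays, further on replicate 1, with mean log2 ratios of -0.44 ± 0.35, -0.33 ± 0.32 and -0.30 ± 0.17 (SD, n = 2) and limma adjusted p of 0.560, 0.691 and 0.711.

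Ift88, the subunit whose loss in mice removes cilia from many tissues, had an intensity of 2871 in control and 2587 with cyclopamine on replicate 1 and of 619 and 681 on replicate 2. It was slightly below control on the first array and slightly above it on the other, and its mean log2 ratio was -0.01 ± 0.20 (SD, n = 2). Ift172, a large peripheral subunit, had intensities of 1968 and 2616 on replicate 1 and of 452 and 450 on replicate 2. It was above control on replicate 1 and level with it on replicate 2. The other 5 subunits (Ift46, Ift52, Ift74, Ift80 and Ift81) had mean log2 ratios from -0.15 to 0.10. Of the 10 IFT-B genes, 4 were lower on both arrays, 3 were higher on both and 3 had opposite signs, and their median mean log2 ratio was 0.01.

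IFT-A subunits serve the return to the base and the entry of membrane proteins. Ift43 had an intensity of 8254 in control and 4989 with cyclopamine on replicate 1, and of 1093 and 946 on replicate 2. Both arrays had it below control, by 1.65-fold and 1.16-fold, and its mean, at -0.47 ± 0.37 on the log2 scale (SD, n = 2; limma, adjusted p = 0.520), was the lowest of the 35. Ift140 went the other way, with intensities of 192 and 334 on replicate 1 and of 53.4 and 53.4 on replicate 2. It stood at 1.74-fold of control on replicate 1 and level with control on replicate 2, on a dim probe, and its mean, at 0.40 ± 0.56 on the log2 scale (SD, n = 2; limma, adjusted p = 0.627), was the highest of the 35. Ift122 had a mean log2 ratio of 0.04, made of 0.30 on replicate 1 and -0.22 on replicate 2. The lowest and the highest member thus belonged to the same complex, though with the gene length trend removed Bbs10 was the highest. The Ift43 probe lies at chr12:87503290-87503349 and the Ift140 probe at chr17:25172684-25172743, both on the plus strand (mm9, positions of the array annotation, which names no exon or UTR for them).

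Motor subunits were few and did not share a direction. Kif3a and Kif3b encode the motor chains of kinesin-2. Kif3a had an intensity of 2607 in control and 1952 with cyclopamine on replicate 1 and of 552 and 525 on replicate 2. Kif3b had intensities of 546 and 781 on replicate 1 and of 136 and 141 on replicate 2. Kif3a was below control on both arrays and Kif3b above it on both, with mean log2 ratios of -0.24 ± 0.24 and 0.28 ± 0.33 (SD, n = 2) and limma adjusted p of 0.772 and 0.735. Dync2h1, the heavy chain of dynein-2, had intensities of 1395 and 2261 on replicate 1 and of 477 and 384 on replicate 2. It was 1.62-fold above control in the female pools and 1.24-fold below control in the male pools, the widest gap between the arrays of any member (1.01 on the log2 scale).

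Of the BBSome genes, 0 of 8 were called by limma. Bbs7, a BBSome subunit, had an intensity of 1110 in control and 920 with cyclopamine on replicate 1 and of 170 and 145 on replicate 2. Its log2 ratios of -0.27 and -0.22 were nearly the same on both arrays. Bbs9, another subunit, had intensities of 2350 and 2984 on replicate 1 and of 572 and 587 on replicate 2, and Bbs10, a chaperonin-like protein needed for BBSome assembly, had 882 and 1063 on replicate 1 and 163 and 167 on replicate 2. Both were above control on each array, mainly on replicate 1, with mean log2 ratios of 0.19 ± 0.22 and 0.15 ± 0.16 (SD, n = 2). The remaining 5 genes (Bbs1, Bbs2, Bbs4, Bbs5 and Bbs12) had mean log2 ratios from -0.19 to 0.11. Of the 8, 2 lay below control on both arrays, 3 above it on both and 3 were opposite, and the median was 0.0046.

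Transition zone genes shared a sign most often among the classes, though some ratios were close to 0. Of 6 genes, 5 were lower on both arrays (B9d1, Cc2d2a, Mks1, Tctn1 and Tctn2) and 1 was higher on both (Rpgrip1l). Over all tested genes 29.1% were lower and 28.6% higher on both. The median mean log2 ratio was only -0.06 and 0 of 6 were called by limma. Mks1 had log2 ratios of -0.05 and -0.002, and Tctn2 of -0.004 and -0.12. The second probes of Cc2d2a and Tctn1 had mean log2 ratios of 0.06 and 0.17, opposite in sign to the brightest. B9d1, which encodes a protein of the B9 complex at the transition zone, had an intensity of 4532 in control and 2899 with cyclopamine on replicate 1 and of 715 and 637 on replicate 2. It was below control by 1.56-fold and 1.12-fold, and averaged -0.41 ± 0.34 on the log2 scale (SD, n = 2; limma, adjusted p = 0.609). Cc2d2a had a mean log2 ratio of -0.22, with -0.15 on replicate 1 and -0.28 on replicate 2. The other 4 genes lay between -0.07 and 0.04.

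The genes that act on SHH signaling at the ciliary membrane held no call either. Tulp3, an adaptor that brings receptors into the cilium with IFT-A, had an intensity of 2146 in control and 2688 with cyclopamine on replicate 1 and of 467 and 429 on replicate 2. Gpr161, a receptor that holds the pathway off in the absence of ligand, had the dimmest probe of the set, with intensities of 53.8 and 54.1 on replicate 1 and of 8.07 and 9.03 on replicate 2. Arl13b, a GTPase of the ciliary membrane, had intensities of 4153 and 4598 on replicate 1 and of 911 and 948 on replicate 2. Tulp3 had opposite signs on the arrays, and Gpr161 and Arl13b were marginally above control on both. The spots of the Gpr161 probe varied by an SD of 0.232 and 0.658, more than its log2 ratios of 0.008 and 0.162. Its direction is thus not readable. The second probe of Arl13b was below control on both arrays, with log2 ratios of -0.77 and -0.06.

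Evc and Evc2 encode partner proteins that sit above the transition zone and bind SMO. Evc had intensities of 2462 in control and 3088 with cyclopamine on replicate 1 and of 563 and 473 on replicate 2. Evc2 had intensities of 7601 and 7852 on replicate 1 and of 1391 and 1301 on replicate 2. Both were above control in the female pools and below control in the male pools, with mean log2 ratios of 0.04 ± 0.41 and -0.03 ± 0.10 (SD, n = 2). No member of this class was lower on both arrays, 2 were higher on both and 3 were opposite.

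**Figure D2:**
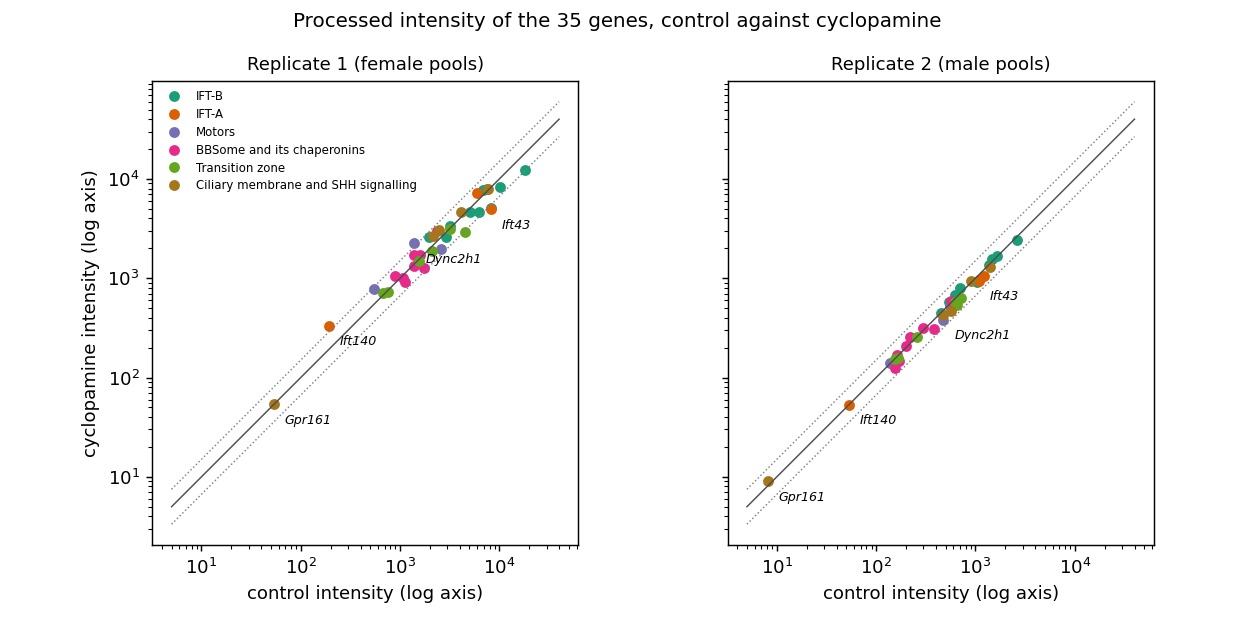
Processed intensity with cyclopamine (y axis) against control (x axis), both log axes, for the 35 genes on replicate 1 (left) and replicate 2 (right), coloured by role; the solid line is equality and the dotted lines 1.5-fold. All genes on replicate 2 lie inside the dotted lines, 5 on replicate 1 lie outside, and Gpr161 is dimmest on both (53.8 and 8.07 in control).

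The ratios spread more on the first array than on the second. The SD of the log2 ratio over the 35 members was 0.373 on replicate 1 and 0.150 on replicate 2, against 0.450 and 0.298 over all tested genes. At least 1.5-fold was reached by 5 members on replicate 1 (Ift43, Ift27 and B9d1 lower, Ift140 and Dync2h1 higher) and by 0 on replicate 2, against 18.6% and 5.13% of all tested genes. The ratio was larger in size on replicate 1 for 27 of 35 members. Across the 35 genes, which are not independent replicates, the ratios of the 2 arrays were nearly unrelated (Pearson r = 0.065, Spearman rho = 0.084), and over all tested probes r was 0.242. The median gap between the arrays was 0.276 on the log2 scale, while the spots of a probe within an array varied by a median SD of 0.032 and 0.034.

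**Figure D3:**
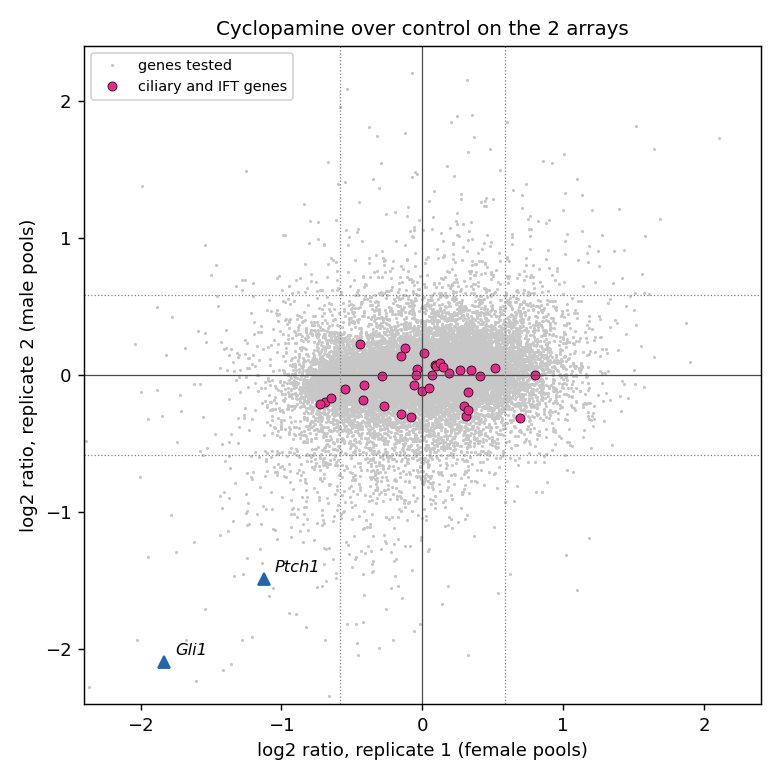
Log2 ratio of cyclopamine over control on replicate 2 (y axis) against replicate 1 (x axis) for the genes tested (grey), the 35 ciliary and IFT genes (filled circles), and Gli1 and Ptch1 (triangles); dotted lines mark 1.5-fold, and 14 genes beyond 2.4 on either axis are not drawn. The ciliary genes stretch along the x axis and stay within 1.5-fold on the y axis, while Gli1 and Ptch1 are low on both.

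On replicate 1 the ratio of a gene followed its length. Over the tested probes with a gene length in the RefSeq table (22468), Spearman rho between log2 ratio and length was 0.439 on replicate 1 and 0.035 on replicate 2. Over the 35 members the values were 0.307 and 0.046. The members were longer than the genes tested, with a median of 40.4 kb against 21.4 kb, from 3.06 kb (Bbs10) to 413 kb (Bbs9). Of the 4 members under 10 kb, Ift20 and B9d1 were below control on both arrays, and Bbs10 and Bbs12 were above it on both. With the length trend taken out of each array, Ift43 had a mean log2 ratio of -0.58 (limma adjusted p = 0.129), Ift57 -0.41, Ift27 -0.40, Cc2d2a -0.33, Bbs7 -0.32, Kif3a -0.32 and B9d1 -0.30. Bbs10, at 0.33, then stood above Ift140, at 0.28, so that the highest member was a BBSome gene and no longer one of IFT-A. None of the 35 was called in that fit, and the part of the length trend in the single ratios was not tested further.

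**Figure D4:**
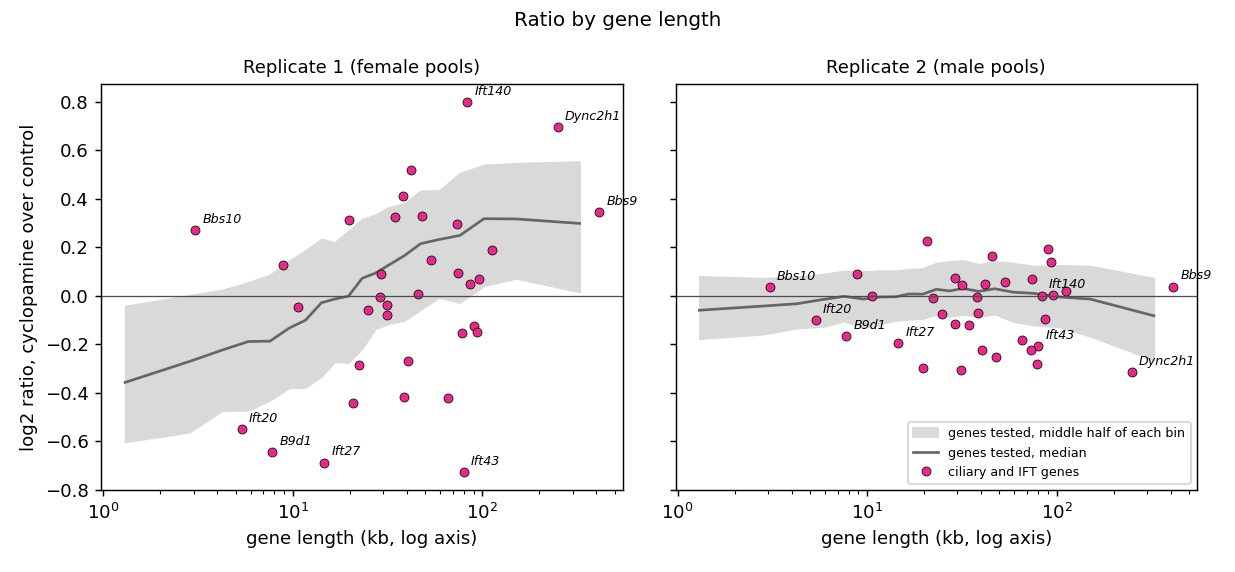
Log2 ratio of cyclopamine over control (y axis) against gene length in kb (x axis, log scale) on replicate 1 (left) and replicate 2 (right); points are the ciliary and IFT genes, the line is the median and the grey band the interquartile range of the tested genes in 20 bins of length. The line climbs from -0.36 in the shortest bin to 0.30 in the longest on replicate 1 and shows no such climb on replicate 2, where it ends at -0.08.

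A second probe gave a check for some members. The 35 genes had 50 probes, 49 of them tested, and 0 of these were called. In 14 genes with several tested probes, the mean log2 ratios of the brightest and the next probe had opposite signs in 7 (Arl13b, Cc2d2a, Evc2, Ift46, Ift74, Kif3a and Tctn1), and their median difference was 0.214. Kif3a read -0.24 and 0.12, and Arl13b read 0.10 and -0.42. Kif3b, at 0.28 and 0.29, and Bbs7, at -0.25 and -0.21, read alike on both probes. The genes furthest from control by mean log2 ratio, Ift43, Ift27, B9d1 and Ift140, had a single probe each.

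A promoter motif that the choice of genes did not use was more frequent in the members than in all genes, though many members lacked it. RFX transcription factors bind the X-box, a palindrome found before many ciliary genes, and the window from 250 bases before to 50 after the start site was searched on both strands in the RefSeq promoter table (GRCm38.p6), which holds 32 of the 35 members. The X-box arm GTTGCC was present in 16 of 32 members and in 14.1% of the 27025 genes of the table. The full site (that arm, AT, then GGCAAC, with up to 3 mismatches; it overlaps the search for the arm) was present in 10 of 32 (31.2%) against 3.84% of the table. The GLI site GACCACCCA with up to 1 mismatch was present in 0 of 32, against 7.73% of the table. The full site matches of the following members lie wholly before the start site and are shown with 8 bases on each side, 5′ to 3′ along the gene, with the matched bases in capitals, since they let the members be compared by sequence.
Bbs7: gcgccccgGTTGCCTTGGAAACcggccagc
Mks1: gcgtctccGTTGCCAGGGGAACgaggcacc
Tctn2: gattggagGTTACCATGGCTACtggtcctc
Bbs12: gacaggcgGTTGCTATAGCAGCgctcagcg
Ift140: tggggcgtGTTGTGACGGCAACctcgcgcc
Ift57: cgggtctgGTTGCCGTGGTGACcggctgcc

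These windows lie at chr3:36613489-36613518 (minus strand) for Bbs7, chr11:87853183-87853212 (plus) for Mks1, chr5:124598679-124598708 (plus) for Tctn2, chr3:37312431-37312460 (plus) for Bbs12, chr17:25015961-25015990 (plus) for Ift140 and chr16:49699199-49699228 (plus) for Ift57. The match has 2 mismatches in Bbs7, Mks1 and Tctn2 and 3 in the others. A match describes the letters and is no evidence of binding. The 10 members with the full site had a median mean log2 ratio of -0.04 and the 22 with a window and no match had 0.02. Both the lower Ift57 and the higher Ift140 carried the site.

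The wider ciliary machinery held few calls. In 11 further lists, 126 genes were listed, 124 were found and 115 were tested. Called lower were 2, Gli1 and Ptch1, both from the list of SHH components that act at the cilium, and 0 were called higher, against 0.868% and 0.439% of all tested genes. Among the 101 genes tested outside that list 0 were called by limma, with 5 at an unadjusted p under 0.05, against 9.05% of all tested genes. Of the 115, 36 were lower and 32 higher on both arrays, against 29.1% and 28.6% of all tested genes.

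The structural lists are given by the genes furthest from control in each direction among those with the same sign on both arrays, and no value in them passed the test. Of 11 other IFT subunits, Hspb11 (IFT25, the partner of Ift27) had a mean log2 ratio of -0.51 and Ift22 of -0.39, while Wdr19 (an IFT-A core subunit) had 0.21 and Ttc30b (IFT70) 0.15. Of 9 other motor subunits, Dync2li1 and Tctex1d2, a light intermediate and a light chain of dynein-2, had -0.39 and -0.38, and Wdr34, its intermediate chain, had 0.08. Of 9 other BBSome genes, Rabl2 had -0.27, Arl6 (the GTPase that recruits the BBSome) -0.26 and Mkks (a chaperonin-like assembly factor) 0.31. Of 15 other transition zone genes, Tmem107 had -0.68 (limma adjusted p = 0.177) and B9d2, the partner of B9d1, -0.43, while Invs had 0.21. B9d1 and B9d2 were both below control on both arrays, and neither was called. The values of these further lists still hold the length trend of replicate 1, where short genes ran lower. Tmem107, B9d2 and B9d1 are short, at 2485, 5783 and 7788 bases, while Hspb11 and Dync2li1 are longer, at 30905 and 29094. The part of length in these values was not tested.

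The lists of the base and of cargo held no call. Of 18 basal body and appendage genes, Cby1 had -0.40 and Kif24, a kinesin that restrains cilium assembly, -0.17, while Cep120 had 0.25 and Pcm1, the scaffold of centriolar satellites, 0.23. Of 10 genes for lipidated cargo and small GTPases, Arl3 had -0.44 and Pde6d, a carrier of prenylated proteins, -0.38, while Unc119b, a carrier of myristoylated proteins, had 0.34 and Rp2, which acts on ARL3, 0.27. Of the 14 SHH components, 12 were not called. Smo, the target of cyclopamine, had log2 ratios of 0.72 on replicate 1 and -0.18 on replicate 2, Gli2 had 0.11 and -0.46, and Adcy5 had 0.52 and -0.30, so each of these 3 was above control on the first array and below it on the other. In that list Spop and Prkar1a, at 0.18 and 0.13, were the 2 furthest above control on both arrays. Smo, Gli2 and Adcy5 were chosen after their values were seen.

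Regulatory and neighbouring lists held no call either. Of 6 tested RFX and FOXJ1 factors, Foxj1, the regulator of motile cilia, had -0.49, while Rfx5 had 0.31 and Rfx7 0.28. Of 10 genes for cilium disassembly and the cell cycle, Cdk1 had -0.40 and Aurka, a kinase that starts disassembly, -0.28, while Hdac6, a tubulin deacetylase, had 0.28 and Nedd9 0.24. Of 5 tested polycystins and ciliary receptors, Mchr1 had -0.23 and Pkd2, a calcium channel of the cilium, 0.16. Motile cilia genes were poorly represented, with 8 of 15 tested, and of these Dnaic1, a dynein arm chain, had -0.64 and Rsph1, a radial spoke protein, -0.49.

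**Figure D5:**
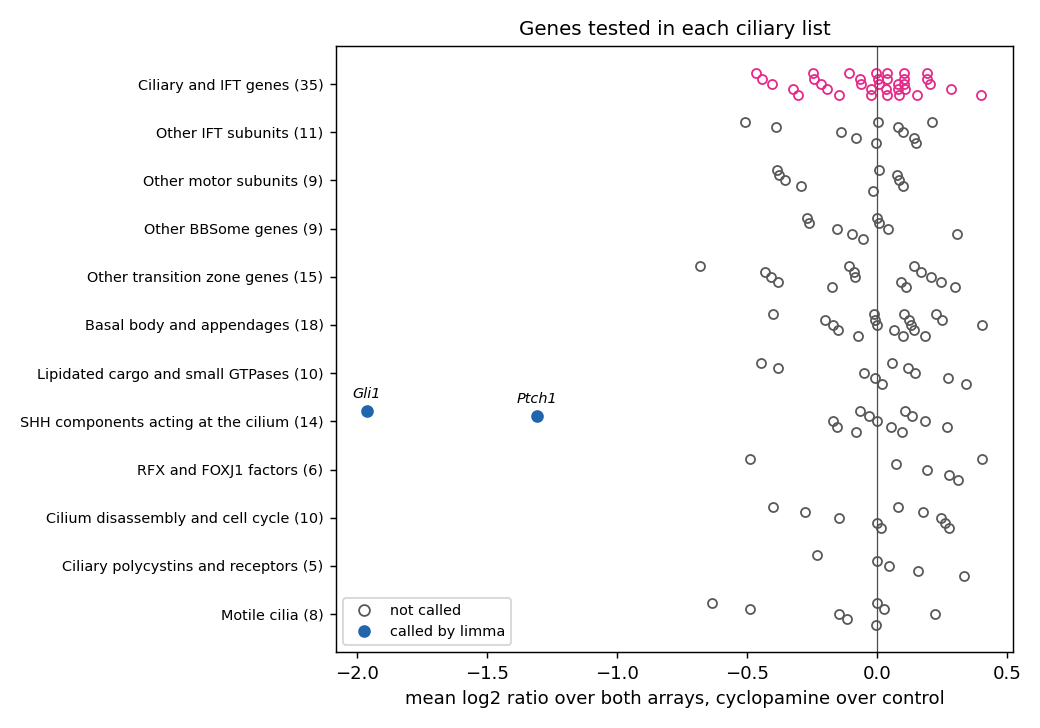
Mean log2 ratio of cyclopamine over control over both arrays (x axis) for each tested gene of the 35 ciliary and IFT genes and of the 11 further lists (y axis, number tested in brackets; vertical position within a list has no meaning). Filled points were called by limma: Gli1 at -1.96 and Ptch1 at -1.31 lie apart from all other points.

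Markers of the cell types in the tissue were read beside the ciliary genes. In the pooled tissue, fewer cells of a type and less RNA per cell cannot be told apart. Of 6 lamina propria fibrocyte markers, 4 were lower on both arrays and past the filter of the study (Aldh1a2, Thy1, Avpr1a and Bmp4) and 1 of them, Avpr1a, was called lower by limma. These 4 are genes that the study lists as lowered in these samples, so their count is not independent evidence of a direction. The other 2, Col1a2 and Vim, had opposite signs on the arrays (0.97 and -0.44, and 0.35 and -0.38). The study judged stainings for COL1A2 and VIM unsuitable as lamina propria markers in the ureter. The summed intensity of the 6 genes was 165480 in control and 205280 with cyclopamine on replicate 1 and 66218 and 47820 on replicate 2. On replicate 1 only Col1a2 and Vim raised this sum, since the other 4 genes were lower. Of 6 smooth muscle markers 4 were lower on both arrays with a median of -0.37, of 8 urothelial markers 5 were higher on both with a median of 0.13, and 0 of these 14 were called. All found markers had an intensity above 0 in every channel, but dim spots carry surrogate values, so this does not show detection. The part of such shifts in the ratios of the ciliary genes was not tested.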

How the data were processed

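RNA of pooled mouse ureters was measured on 2 Agilent 2-colour arrays. The deposited scanner files hold spot intensity per channel, made by the authors with Agilent Feature Extraction (the headers give version 12.2.0.7, the submitters' processing notes 10.7.3.1): background subtraction with detrending, surrogate values for dim spots, and linear and LOWESS dye normalization. Each deposited log10 ratio is of red to green, per the file headers; it served to check directions. A score for each probe stands in the deposited series table; by its values it is a linear fold change with a sign, cyclopamine against control, already turned, with a median of 1.0 on both arrays. The flags for background and outliers are deposited software output.

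Groups and dyes came from the labels. Control and outlier spots were left out, log2 values were averaged over the spots of a probe (at most 4), and ratios were turned to cyclopamine over control without scaling between arrays. A gene was read from its brightest probe. With limma 3.58.1 in R 4.3.3 (no intercept, dye sign as the coefficient) 25975 of 39429 probes were tested, those with at least 0.5 of their spots well above background in control on both arrays or in cyclopamine on both, with Benjamini-Hochberg adjustment over all of them and a limit of 0.05. The fit has 1 residual degree of freedom per probe beside 51.9 prior degrees of freedom, which limma estimates over all tested probes. Precision is limited by having 2 arrays. The filter of the study carries no p-value, and an exact sign-flip test of 2 arrays cannot go below p = 0.5. On simulated ratios for cyclopamine against control over 25975 probes, 55 of 100 probes with a log2 change of 1, 100 of 100 with a change of 2 and 0 of 25775 unchanged probes were called. The simulated errors were independent, equally wide on both arrays and drawn from the limma prior, without a length trend. The real arrays differed in spread and replicate 1 had a length trend, so these counts need not hold for them.

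The members, lists, tests and naming rule were chosen with earlier results of these data known. Values in every channel are given for the 6 lowest and 6 highest members by mean log2 ratio and for 9 fixed ones (Ift88, Kif3a, Dync2h1, Ift172, Tulp3, Gpr161, Arl13b, Evc and Evc2). Of each further list, called genes and up to 2 per direction with the largest mean log2 ratio and the same sign on both arrays are named; 1 gene that the rule names is not reported here. Alternatives changed the background correction, dim-probe filter, prior, normalization, intensity and fold limits, probe choice, gene length trend and naming, and left out each array. No genome was used. The promoter windows are those of RefSeq.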

Additional observations from a re-analysis of the deposited data

Results flagged for a closer look

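In 3 members the arrays pointed in opposite directions by more than 1.5-fold. Dync2h1, the dynein-2 heavy chain, had log2 ratios of 0.70 in the female pools (replicate 1) and -0.31 in the male pools (replicate 2), a difference of 1.01. Bbs1 had 0.31 and -0.30, a difference of 0.608. Bbs5 had -0.44 and 0.23, a difference of -0.670. With 1 array per sex these differences were not tested, and sex, dye orientation and replicate cannot be told apart.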

How the results depend on the processing

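No member was called by limma under any of 8 alternatives (0 to 3 had an unadjusted p under 0.05), and the lowest adjusted p over them was 0.129 (Ift43, gene length trend removed). Whole-table calls moved from 200 lower and 118 higher probes to 42 and 12 with normexp background correction, 261 and 216 without the filter on dim probes, 309 and 259 with the length trend removed, 0 and 0 with the 4 channels as separate samples without a replicate block (291 and 274 at an unadjusted p under 0.05), and 0 and 0 with the series table values (818 and 1051); the cause was not tested. The members higher on both arrays were 11, but 2 with the series table values (rounded to few digits) and 5 with the length trend removed. With that trend removed the median mean log2 ratio was -0.0763 over the members, -0.11 for IFT-B, -0.0165 for the BBSome and -0.10 for the transition zone, and Evc turned to -0.0498. The BBSome median was also -0.0112 with normexp and 0.0289 with the series table values. With the mean over all probes of a gene the medians were 0.0367 over the members and 0.0381 for the BBSome, and Arl13b turned to -0.16 and Evc2 to 0.14. Leaving out each array in turn gave medians from -0.0094 to 0.0084 over the members, from -0.137 to 0.0060 for IFT-B, from 0.0372 to 0.0440 for the BBSome, from -0.0962 to -0.0514 for the transition zone and from -0.0972 to 0.147 for the ciliary membrane class. The medians of the 2 classes with 3 genes moved most when an array was left out, from -0.208 to 0.296 for IFT-A and from -0.072 to 0.517 for the motors. The filter of the study then took 0 to 3 members lower and 0 to 2 higher, the larger counts resting on replicate 1 alone. With a single array left, no residual degree of freedom remained and limma gave no test. The other 187 values, all of the 19 named members, kept their direction or moved by less than the SD between arrays. Leaving out 1 of 2 arrays always moves a mean by less than that SD, so that comparison could not fail. Dync2h1 read -0.31 without replicate 1 and 0.70 without replicate 2, and Evc read -0.25 and 0.33. Changes of the dim-probe filter, of the prior or to separate channels left the ratios as they were. The main fit already used the pairing, since each array is a ratio within a pair of pools, and no further pairing remained.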
